A study of Mus musculus with 20 samples.

Results

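The mark H3K4me1 was compared between livers lacking Cpt2 (Cpt2 KO) and wild-type livers (WT), 2 livers in each group, taken from 9-week-old male C57BL/6 mice after a 24 h fast. These 4 libraries are 4 of the 20 samples of a study of H3K4me1, H3K27ac and H3K9ac in WT, Cpt2 KO, Ppara KO and double knockout (DKO) livers, pooled inputs included. The labels write the Cpt2 deletion as L-/- and call it a liver knockout, and they give the Ppara deletion as -/-. The promoter that drives the recombinase and the state of the Cpt2 allele in the controls are not given in the sources used here. All mice were on a standard chow before the fast, and each library is one liver. The values are the authors' peak lists: regions called per liver against a pooled input, each with a fold enrichment of the chromatin immunoprecipitation over its background. They were read over 103014 consensus intervals that the authors deposited for this mark, of which 85792 were called in at least 1 of the 4 livers and 23978 in all 4. An interval is named here by the nearest protein-coding gene body. An interval called in both Cpt2 KO livers and in neither WT liver is termed gained, and one called in both WT livers and in neither Cpt2 KO liver is termed lost.

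Cpt2 is the carnitine palmitoyltransferase of the inner mitochondrial membrane, which returns long-chain fatty acids to their coenzyme A form so that they can be oxidised. A fasted liver depends on this oxidation for energy, for ketone body synthesis and to drive glucose production, and unoxidised fatty acids are ligands of the nuclear receptor PPARA, which switches on genes of fatty acid catabolism together with its partner RXRA. H3K4me1, a single methyl group on lysine 4 of histone H3, marks enhancers, both those in use and those that are only primed. H3K27ac, an acetyl group on lysine 27 of the same histone, accompanies the active ones and active promoters. The study asked how Ppara and fatty acid oxidation shape transcription in the liver, and the comparison here asks which H3K4me1 regions differ when Cpt2 alone is deleted.

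Most gained and lost intervals lay far from a gene start: 40 of the gained and 29 of the lost intervals covered a start listed by RefSeq. The promoter windows below are shown because an interval that differed covered them whole. They run from 250 bases before to 50 bases after the start, 5′ to 3′ on the strand of the gene, and come from RefSeq on build GRCm38.p6 (mm10). The Fgf21 window is chr7:45615441-45615740 (minus strand), that of Ucp3 chr7:100472741-100473040 (plus strand), that of Fabp3 chr4:130308488-130308787 (plus strand), that of Anxa2 chr9:69453433-69453732 (plus strand) and that of Slc13a2 chr11:78422185-78422484 (minus strand). The intervals over Fgf21 and Ucp3 were higher in Cpt2 KO, those over Fabp3 and Anxa2 were gained, and that over Slc13a2 was lower. Capitals mark matches, on either strand, to the letters searched.
Fgf21: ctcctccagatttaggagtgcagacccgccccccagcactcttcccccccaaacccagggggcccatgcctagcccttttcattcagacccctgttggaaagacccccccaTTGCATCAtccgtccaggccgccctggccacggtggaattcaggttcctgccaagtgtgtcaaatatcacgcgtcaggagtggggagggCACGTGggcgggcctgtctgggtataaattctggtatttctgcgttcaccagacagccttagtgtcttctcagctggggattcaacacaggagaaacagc
Ucp3: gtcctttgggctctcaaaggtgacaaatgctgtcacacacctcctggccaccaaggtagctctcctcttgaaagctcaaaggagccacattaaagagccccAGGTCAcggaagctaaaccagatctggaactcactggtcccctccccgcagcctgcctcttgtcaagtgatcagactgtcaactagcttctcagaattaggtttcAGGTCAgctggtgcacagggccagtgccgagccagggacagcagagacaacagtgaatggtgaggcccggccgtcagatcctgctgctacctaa
Fabp3: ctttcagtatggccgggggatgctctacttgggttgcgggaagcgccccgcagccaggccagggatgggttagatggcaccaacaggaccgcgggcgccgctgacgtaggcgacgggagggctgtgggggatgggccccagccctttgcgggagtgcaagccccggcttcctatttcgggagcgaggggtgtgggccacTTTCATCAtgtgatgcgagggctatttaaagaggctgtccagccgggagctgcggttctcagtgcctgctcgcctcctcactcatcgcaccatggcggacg
Anxa2: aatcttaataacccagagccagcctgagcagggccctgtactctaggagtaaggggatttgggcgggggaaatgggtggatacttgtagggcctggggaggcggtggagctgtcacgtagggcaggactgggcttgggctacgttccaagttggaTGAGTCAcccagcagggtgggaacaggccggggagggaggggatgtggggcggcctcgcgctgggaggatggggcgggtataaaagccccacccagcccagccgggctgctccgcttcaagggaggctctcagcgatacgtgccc
Slc13a2: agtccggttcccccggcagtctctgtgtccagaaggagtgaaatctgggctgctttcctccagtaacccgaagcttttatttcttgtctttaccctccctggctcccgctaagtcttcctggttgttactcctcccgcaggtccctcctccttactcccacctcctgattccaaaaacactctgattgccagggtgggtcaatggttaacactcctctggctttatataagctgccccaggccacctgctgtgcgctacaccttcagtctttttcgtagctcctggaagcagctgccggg
The letters searched, on both strands, were AGGTCA (a nuclear receptor half-site), the direct repeat of that half-site with 1 base between, bound by PPARA with RXRA, TGATGNAA (a C/EBP-ATF response element), TGANTCA (AP-1), TGACGTCA (a cyclic AMP response element), TGTTTAC (forkhead factors) and CACGTG (an E-box). The Fgf21 window held 1 match to TGATGNAA and 1 to CACGTG, letters found in 3.97% and 7.15% of the 32851 RefSeq windows of the same length. The Ucp3 window held 2 matches to AGGTCA, which 16.3% of all windows contain. The Fabp3 window held 1 match to TGATGNAA, and the Anxa2 window held 1 match to TGANTCA, which is in 7.81% of windows. None of the letters searched occurs in the Slc13a2 window, nor in those of Eva1c and Cys1, which an interval that was lower also covered and which are not printed. A match describes the letters only.

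One library stood apart before any group was compared. Over the 23978 intervals called in all 4 livers, the log2 folds of Cpt2 KO replicate 1 correlated with those of the other libraries at r = 0.305 to 0.364, whereas the other 3 libraries correlated with each other at r = 0.627 to 0.693. These are correlations across intervals of libraries that share a pooled input, given as a description. Cpt2 KO replicate 1 also had the fewest peaks of the 4, 62998 against 66862 to 72151, covering 41.4 Mb against 52.5 to 53.5 Mb, and its smallest peak was 211 bases wide against 196 to 199. Its part in the results was not tested in reads, since the files give no read totals, and the counts of intervals, the shares in other readouts and the main gene lists are given with and without it.

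No single interval passed the test between the groups. In a limma fit of the centred log2 folds, 0 of 23978 intervals were higher in Cpt2 KO (0.0%) and 0 were lower (0.0%) at an adjusted p under 0.05, the lowest limma adjusted p being 0.763. At an unadjusted p under 0.05 there were 1490 (6.21%). Without Cpt2 KO replicate 1, 52 of 32959 intervals passed, 16 higher and 36 lower, with the lone Cpt2 KO liver assumed to vary like the WT livers. The 4 values of an interval did not overlap between the groups, Cpt2 KO higher, at 4195 intervals (17.5%) and, Cpt2 KO lower, at 4535 (18.9%). The 2 replicate pairs were Cpt2 KO replicate 1 minus WT replicate 1 and Cpt2 KO replicate 2 minus WT replicate 2. Both differed by at least 0.5 on the log2 scale, with groups that did not overlap, at 576 higher (2.4%) and 580 lower intervals (2.42%). The 2 pair differences had the same sign at 54.0% of intervals. What follows describes which regions differed in both pairs. The limma p-values rest on the spread between these 4 livers at an interval, moderated by the spread over all 23978 intervals.

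**Figure D1:**
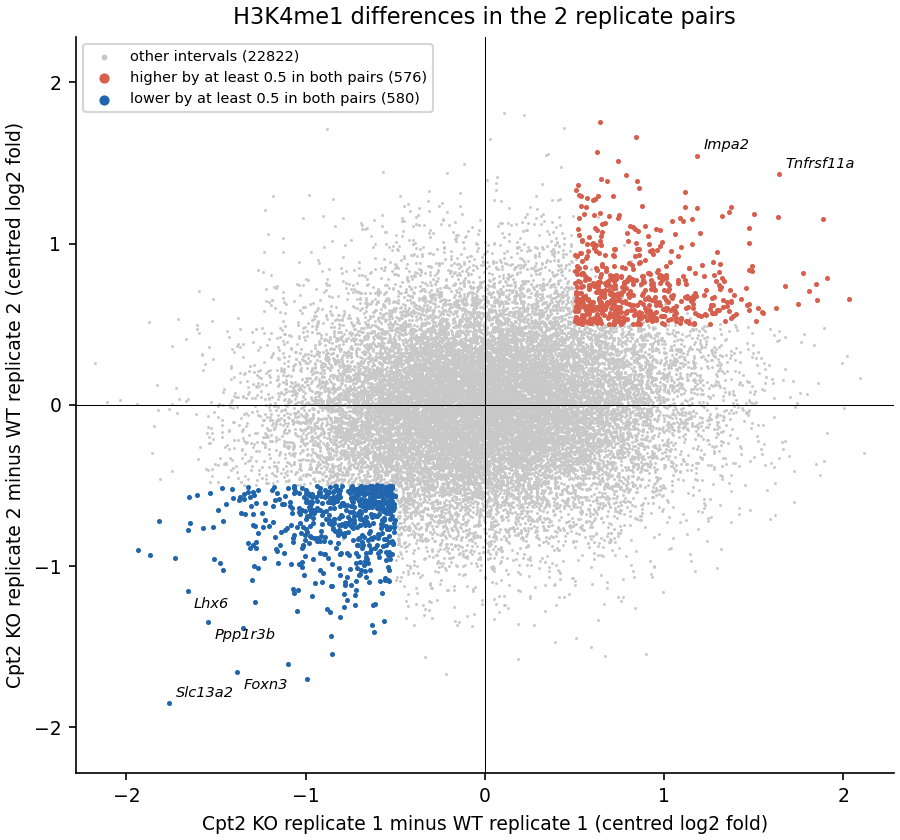
Each point is 1 of the 23978 H3K4me1 intervals called in all 4 livers, with the centred log2 fold of Cpt2 KO minus WT in the first replicate pair on the x axis and in the second on the y axis. The 576 red and 580 blue intervals differed by at least 0.5 in both pairs and had groups that did not overlap. The 2 pair differences had the same sign at 54.0% of all intervals.

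The largest agreeing increase lay nearest Tnfrsf11a, the receptor RANK of the tumour necrosis factor receptor family, at chr1:105899786-105901125, 51011 bases from the gene body. Its fold was 5.18 and 4.42 in the WT livers and 16.2 and 11.9 in the Cpt2 KO livers. Both Cpt2 KO livers were above both WT livers, as the rule that chose these intervals required, and the log2 difference was 1.54 (SE 0.29, limma adjusted p = 0.788). Without Cpt2 KO replicate 1 the log2 difference was 1.32, from livers that also chose the interval. H3K27ac at the same interval was 8.50 and 10.1 in WT and 25.7 and 13.8 in Cpt2 KO, again without overlap.

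Inside the body of Det1, an adaptor of a ubiquitin ligase, the interval chr7:78826405-78829483 had H3K4me1 folds of 4.83 and 6.23 in WT and 12.5 and 14.5 in Cpt2 KO, a log2 difference of 1.30 (SE 0.29). H3K27ac there was 5.6 and 5.24 in WT and 20.7 and 22.6 in Cpt2 KO. Both marks were higher in both Cpt2 KO livers, and the interval was called for H3K4me1 in none of the 4 Ppara-null livers. Near Abhd6, a lipase that splits monoacylglycerols, the interval chr14:8015365-8017579, within the gene, stood at 6.67 and 5.10 in WT and 16.7 and 11.5 in Cpt2 KO. Near Trib1, a pseudokinase that regulates lipid synthesis in liver, the interval chr15:59664899-59666360 had folds of 2.79 and 3.83 in WT and 7.14 and 8.80 in Cpt2 KO. The groups did not overlap at either interval.

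The interval near Pde3a, a phosphodiesterase that breaks down cyclic AMP and cyclic GMP, lay at chr6:141189090-141190528 and had folds of 6.25 and 5.40 in WT and 13.9 and 12 in Cpt2 KO. Its H3K27ac folds were 6.34 and 8.403 in WT and 24.4 and 20.3 in Cpt2 KO. The interval nearest Gm41844, a predicted gene, had H3K4me1 folds of 7.37 and 4.50 in WT and 16.7 and 10.5 in Cpt2 KO, and H3K27ac folds of 16.0 and 14.9 in Cpt2 KO with no H3K27ac peak in either WT liver. At these intervals each Cpt2 KO liver was above each WT liver in H3K4me1. The other intervals among the 12 largest lay nearest Impa2, which makes free inositol, Adgrl2, an adhesion receptor, Cttnbp2nl, the protein kinase C gene Prkch, the Wnt receptor gene Fzd4 and Nfx1, a zinc finger factor. Over the 12, the log2 difference ran from 1.16 to 1.54. H3K27ac was called in both Cpt2 KO livers at 12 of 12, against 80.6% of all 576 higher intervals and 62.3% of those called in all 4 livers. Of the 8 with H3K27ac in all 4 livers, Cpt2 KO lay above WT at 7 and below at 1, Adgrl2.

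The largest agreeing decrease lay inside the body of Slc13a2, a sodium-coupled transporter of citrate and other dicarboxylates, at chr11:78418417-78420872. Its fold was 12.7 and 14.0 in WT and 3.75 and 3.88 in Cpt2 KO. The 2 livers of each group were close together. The groups were apart, as the rule required, and the log2 difference was -1.81 (SE 0.28, limma adjusted p = 0.763). Without Cpt2 KO replicate 1 the log2 difference was -1.78, from livers that also chose the interval. The neighbouring interval over the start of Slc13a2, shown above, had folds of 11.2 and 15.7 in WT and 4.33 and 9.87 in Cpt2 KO. Its H3K27ac peaks, 4.89 and 5.67 in WT, were not called in Cpt2 KO.

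Foxn3, a forkhead repressor, held the next largest inside its body, chr12:99229829-99231219, with folds of 9.86 and 13.6 in WT and 3.78 and 4.30 in Cpt2 KO. Near Ppp1r3b, a subunit that directs a phosphatase to glycogen, the interval chr8:35210428-35211693 had folds of 10.6 and 9.06 in WT and 3.64 and 3.56 in Cpt2 KO, although it lay 164634 bases from the gene body. Neither interval overlapped between the groups, and H3K27ac, called in both WT livers at both, was called in neither Cpt2 KO liver. In Cpb2, a carboxypeptidase made by the liver that slows clot lysis, the interval chr14:75248698-75250828 had folds of 11.9 and 8.49 in WT and 4.83 and 4.0 in Cpt2 KO. Its H3K27ac was also lower in both Cpt2 KO livers, 12.4 and 9.67 in WT against 6.92 and 6.65.

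In Elf1, an ETS-family factor, the interval chr14:79482728-79485522 had H3K4me1 folds of 12.4 and 14.5 in WT and 6.00 and 6.00 in Cpt2 KO. Its H3K27ac was 30.2 and 37.5 in WT against 8.38 and 28.9 in Cpt2 KO, so that 1 Cpt2 KO liver came close to WT in that mark. Eva1c went the other way in H3K27ac: over its start the H3K4me1 fold was 7.4 and 12.2 in WT and 3.46 and 4.0 in Cpt2 KO, while H3K27ac was 7.20 and 7.55 in WT and 11.7 and 8.90 in Cpt2 KO. The others of the 12 were Cmah, which hydroxylates sialic acid, the phospholipase Ddhd1, the homeobox factor Lhx6, the cilium protein Cys1, the sulfhydryl oxidase Qsox1 and Aff1, a scaffold of an elongation complex. Their log2 differences and those above ran from -1.81 to -1.10. H3K27ac was called in neither Cpt2 KO liver at 8 of the 12, against 44.0% of all 580 lower intervals and 28.5% of those called in all 4. It was called in at least 1 WT liver at 11, against 78.6% and 75.9%.

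**Figure D2:**
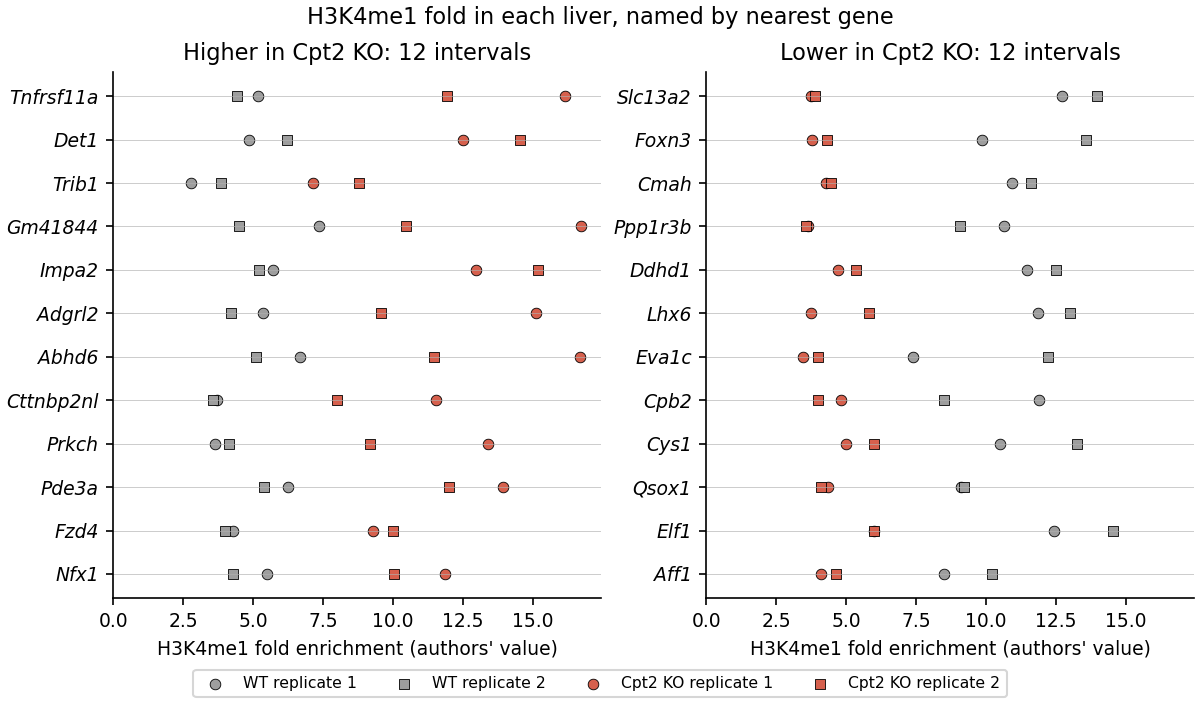
H3K4me1 fold enrichment (x axis, the authors' values) in each of the 4 livers at the 12 intervals with the largest agreeing increase and the 12 with the largest agreeing decrease, named by the nearest gene. Grey symbols are WT and red symbols Cpt2 KO livers. The rule that chose the intervals required groups that do not overlap, so the separation describes the choice, and the spread between the 2 symbols of one colour shows how far livers of a group differed.

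Gained intervals numbered 2958 (3.45% of those called in at least 1 of the 4 livers) and lost intervals 3748 (4.37%). Gained intervals had a median width of 667 bases and lost intervals 496, against 1707 for those called in all 4. The middle of the interval lay inside a gene body at 57.5% of gained, 74.2% of lost and 68.8% of all intervals called in at least 1 liver. Lost intervals lay closer to intervals called in all 4 livers: 41.7% were within 1000 bases of one, against 20.0% of gained intervals and 30.3% of all intervals called in 1 to 3 livers. Without Cpt2 KO replicate 1 the counts became 10832 gained and 5400 lost, 27.3% and 30.6% of which were called in that library.

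The strongest gained interval lay near Cdh26, a cadherin, at chr2:178493287-178494778, with folds of 12.5 and 12.6 in the Cpt2 KO livers and no call in WT. It was not called for H3K4me1 in Ppara KO or DKO either, and H3K27ac was called only in the Cpt2 KO livers among these 4, at 21.2 and 13.3. Inside Mical2, an actin-oxidising enzyme, the gained interval chr7:112352370-112354913 had folds of 11.5 and 13.3, and in DKO it was called at 3.9 and 3.64. Ppara KO livers had no call there. Near Sez6l the folds were 12.1 and 11.3, with H3K27ac of 15.2 and 12.8 in Cpt2 KO and none in WT.

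Anxa2, a calcium-dependent protein that binds membrane phospholipids, had a gained interval 4464 bases from its body, chr9:69448485-69449954, with folds of 13.7 and 10.9 and H3K27ac folds of 10.1 and 12.3 in Cpt2 KO. A second gained interval covered its start, shown above, at folds of 5.63 and 8.0. There H3K27ac was already called in WT, at 5.83 and 11.8 against 9.885 and 12.99 in Cpt2 KO, and the groups overlapped.

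Fabp3, a fatty acid binding protein best known from heart and muscle, had a gained interval 9503 bases from its body, chr4:130298143-130300327, with folds of 10.7 and 11.7, and another over its start at 7.79 and 9.95. H3K27ac at the start was 6.03 and 10.0 in Cpt2 KO and not called in WT, so both marks at both Fabp3 intervals were called only in Cpt2 KO among these 4 livers. Near Slc2a1, the glucose transporter GLUT1, the gained interval chr4:119098238-119099225 had folds of 9.67 and 9.66. Near Azin1, an activator of polyamine synthesis, the folds were 11.8 and 10.0, and the interval was also called in all 4 Ppara-null livers, the DKO livers having 15.0 and 14.6 and the Ppara KO livers 8.4 and 7.20.

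The remaining gains among the 12 were near Bcl9, a cofactor of beta-catenin, the mitochondrial nucleotidase Nt5m, the actin-binding Ablim1, the coactivator Eya3 and the kinase gene Map3k8. Of the 12, H3K27ac was called in both Cpt2 KO livers and in neither WT liver at 8, against 18.6% of all gained intervals. Also 8 of the 12 were not called for H3K4me1 in any Ppara-null liver, against 21.6% of all gained intervals. The lower of the 2 Cpt2 KO folds ran from 9.66 to 12.5.

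The strongest lost interval lay 2621 bases from Serpina1e, one of the alpha-1-antitrypsin genes, at chr12:103958337-103960700. Its folds were 11.7 and 14.0 in WT, and H3K27ac there was 17.9 and 11.5 in WT and not called in Cpt2 KO. The Serpina1 genes are close copies of each other, so reads may have been split among them. Inside Nfix, a factor of the nuclear factor I family, the lost interval chr8:84716638-84718304 had folds of 10.8 and 14.5 in WT, and it was called in all 4 Ppara-null livers, the Ppara KO livers having 6.40 and 9.69 and the DKO livers 3.63 and 6.06. At Nfix the absence was thus seen in Cpt2 KO and not in DKO. Both DKO folds were still below both Ppara KO folds, with a log2 difference of -0.78.

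Inside Pla2g12b, a phospholipase-family protein involved in lipoprotein secretion, the lost interval chr10:59404788-59405824 had folds of 9.82 and 8.73 in WT. Near Mycn, a growth-promoting factor, the interval chr12:12998872-13000633 had folds of 10.5 and 8.87 in WT, and it too was called in all 4 Ppara-null livers. Its folds there were 8.0 and 7.31 in Ppara KO and lower, 5.06 and 4.67, in DKO. The others of the 12 were nearest Ttbk1, Macrod1, Lacc1, Dhrs7, Erc2, Bin2, Csnk1g3 and Rufy3. The lower WT fold ran from 8.68 to 11.7 over the 12. H3K27ac was called in neither Cpt2 KO liver at 12 of 12, where 91.9% of all lost intervals had none, and in at least 1 WT liver at 9, against 28.3% of all lost intervals.

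Some genes gathered many such intervals. Over all intervals called in at least 1 of the 4 livers, 3.45% were gained and 4.37% lost. The ranking is by number, so genes with many intervals can rank high at a modest share. Sgms1, which makes sphingomyelin, had 11 gained and 1 lost of 68 intervals called in at least 1 of the 4 livers, all inside its body of 267159 bases. Pde4d, a cyclic AMP phosphodiesterase, had 9 gained and 0 lost of 60. Atf3, a stress-induced transcription factor, had 5 gained and 0 lost of 14, the farthest 57194 bases away. Chd2 had 6 gained and 2 lost of 47, and Asap1 5 gained and 3 lost of 62. Tex35 had 7 gained of 13, Siah1a 6 of 25 and Adamts12 5 of 9, with 0 lost at each.

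Ghr, the growth hormone receptor, had 13 lost and 0 gained of 68 intervals, and Thrb, a thyroid hormone receptor, had 12 lost and 1 gained of 76. Foxn3 had 13 lost and 0 gained of 115. Foxa2, a pioneer factor of hepatocytes, had 11 lost and 0 gained of 60, the farthest 142168 bases from its body. Acsl1, which activates long-chain fatty acids, had 10 lost and 1 gained of 51. Fam214a, Gse1 and Rbm47 had 10 lost each, beside 2, 3 and 1 gained, of 34, 115 and 81 intervals. In all, 2220 genes had a gained interval and 2258 a lost one, 539 of them both, and 56 genes had 4 or more gained against 169 with 4 or more lost.

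Genes of fatty acid breakdown were then taken by lists, counting intervals within 25000 bases of a member. Over all intervals near a gene, 3.26% were gained and 4.43% were lost, and the median log2 difference over those called in all 4 livers was -0.01. Among those called in all 4 livers, 2.26% were higher and 2.41% lower by at least 0.5 in both pairs. List members named below as higher or lower come from these, so their H3K4me1 groups do not overlap by choice. The limma test passed 0 intervals in every list. Near 30 PPARA target genes, 12 of 261 intervals were gained (4.6%) and 20 were lost (7.66%), and the median log2 difference was 0.05. Among the 94 called in all 4 livers, 5 were higher by at least 0.5 in both pairs and 2 lower. The higher ones lay at Fgf21, Ucp3, Plin2 and Acot1, the lower at G0s2 and Acsl1. Of the 20 lost, 8 lay at Acsl1 and 5 at Slc27a2. Those at Slc27a2 included the close neighbours chr2:126535067-126535511, chr2:126535793-126536398 and chr2:126536581-126537173, counted as separate intervals. Mitochondrial fatty acid oxidation had 5 gained and 5 lost of 147 and a median of 0.01. Peroxisomal oxidation had 5 gained and 9 lost of 183 and a median of -0.04. Of intervals called in all 4 livers, mitochondrial oxidation had 3 higher and 0 lower of 58 by at least 0.5 in both pairs. Peroxisomal oxidation had 2 and 0 of 71, and ketone body genes 0 and 0 of 28. Ketone body synthesis and export had 5 gained and 0 lost of 77, a gained share of 6.49%, with the gains at 2 of its 6 genes, Slc16a1 and Bdh1. Within 5000 bases of a gene only 1 of 52 was gained (1.92%), against 3.06% over all genes. Without Cpt2 KO replicate 1 the gained share was 15.2% near PPARA targets and 20.5% near ketone body genes, against 15.0% over all intervals near a gene, so that PPARA targets were then near that share.

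Fgf21, the fasting hormone of the liver and a PPARA target, had the interval chr7:45613816-45617793 over its start, with folds of 10.0 and 8.50 in WT and 18.6 and 13.4 in Cpt2 KO. Both Cpt2 KO livers were above both WT livers, and the log2 difference was 0.77 (SE 0.28, limma adjusted p = 0.788). The start of Fut1 lies in the same interval, so the 2 genes cannot be told apart there. H3K27ac was 15.0 and 18.4 in WT and 22.0 and 21.6 in Cpt2 KO. The Ppara KO livers had H3K4me1 folds of 5.80 and 5.40 and the DKO livers 7.05 and 7.85. A short interval beside it, chr7:45613106-45613613, counted as lost, at 8.96 and 7.36 in WT, although the larger interval was higher.

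Ucp3, a mitochondrial carrier induced by fatty acids, had an interval over its start, chr7:100471096-100476053, with H3K4me1 folds of 6.89 and 6.63 in WT and 17.6 and 10.3 in Cpt2 KO. H3K27ac there was 5.14 and 3.88 in WT and 15.9 and 16.8 in Cpt2 KO. Both marks separated the groups, and the log2 difference in H3K4me1 was 1.00 (SE 0.31, limma adjusted p = 0.788). Acsl1 and Slc27a2, which bring fatty acids into the cell and activate them, were on the other side: the strongest lost interval near Acsl1, chr8:46542907-46543513, had folds of 7.60 and 10.0 in WT, and that near Slc27a2, chr2:126540030-126540944, had 9.15 and 7.58. Near G0s2, an inhibitor of triglyceride breakdown, the fold was 8.60 and 7.36 in WT and 3.50 and 4.60 in Cpt2 KO.

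In the oxidation lists, Cpt1a, the transferase that loads fatty acids onto carnitine, had an interval inside its body at chr19:3353441-3354383 with folds of 3.78 and 3.10 in WT and 6.19 and 5.89 in Cpt2 KO. Hadha, a subunit of the mitochondrial trifunctional protein, had chr5:30151239-30152361 at 4.14 and 3.86 in WT and 7.98 and 6.31 in Cpt2 KO, with H3K27ac of 10.4 and 8.0 against 22.8 and 20.9. Ehhadh, the peroxisomal bifunctional enzyme, had chr16:21791836-21793190 at 5.69 and 6.50 in WT and 8.74 and 9.29 in Cpt2 KO. Each of these 3 intervals was higher in both Cpt2 KO livers without overlap, by 0.82, 0.83 and 0.57 on the log2 scale, with limma adjusted p of 0.788, 0.788 and 0.793. The Ehhadh interval was called in no Ppara-null liver. Hsd17b4, the other peroxisomal bifunctional enzyme, had folds of 3.71 and 4.54 in WT and 6.48 and 7.87 in Cpt2 KO.

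Among gains, Acads, the short-chain acyl-coenzyme A dehydrogenase, had folds of 6.48 and 7.0 inside its body. Slc16a1, the transporter that exports ketone bodies, had 7.20 and 7.36, and Bdh1, which reduces acetoacetate, had 9.80 and 4.75, all in Cpt2 KO only among these 4 livers. Acadm, the medium-chain dehydrogenase, had a lost interval 1134 bases away, at 9.00 and 7.33 in WT, and 3 gained intervals, the strongest at 6.00 and 6.00. Abcd2, a peroxisomal fatty acid transporter, had a gained interval at 7.4 and 5.84, and Slc25a17, a peroxisomal carrier, a lost one at 6.67 and 6.57.

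**Figure D3:**
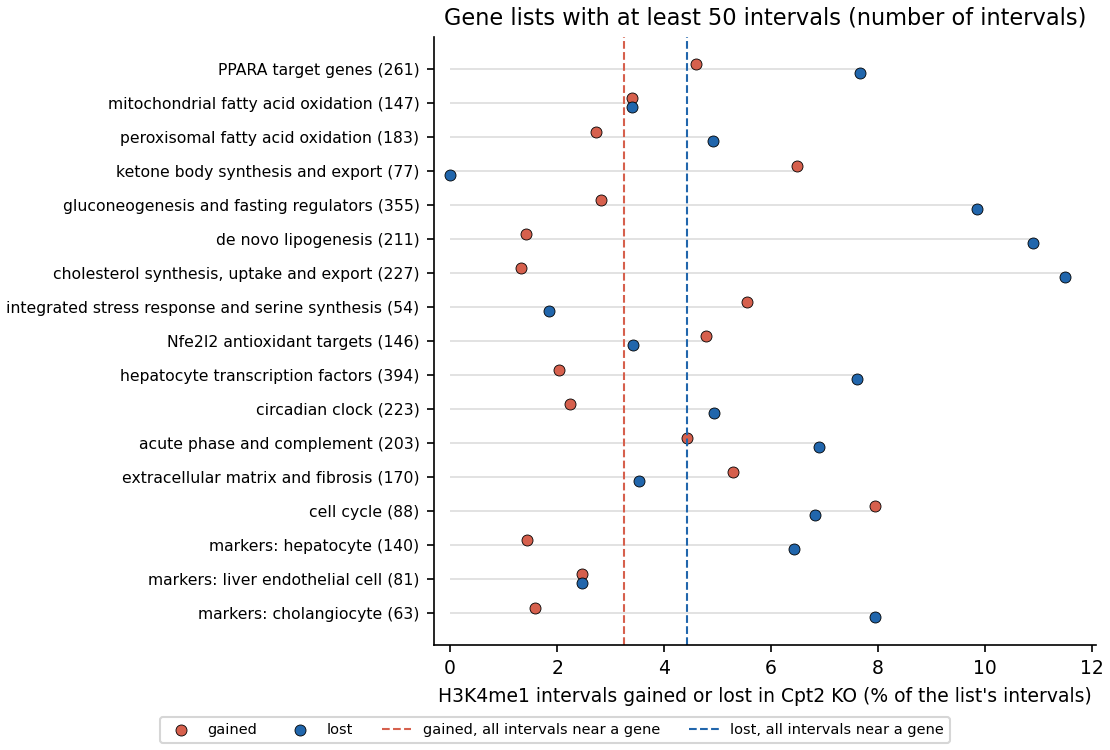
Share of the H3K4me1 intervals of each gene list that were gained (red) or lost (blue) in Cpt2 KO (x axis, percent), for lists with at least 50 intervals. Dashed lines give the same over all intervals near a gene, 3.26% gained and 4.43% lost. The blue points of cholesterol synthesis, de novo lipogenesis and gluconeogenesis lie farthest to the right, at 11.5%, 10.9% and 9.86%.

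Among the lists with at least 50 intervals, the lost share was largest near genes of lipid synthesis and of fasting glucose control. Near genes of cholesterol synthesis, uptake and export 26 of 227 intervals were lost (11.5%) and 3 gained (1.32%), and the median log2 difference was -0.11. Near de novo lipogenesis genes 23 of 211 were lost (10.9%) and 3 gained (1.42%), spread over 10 genes with a loss, with a median of -0.06. Near gluconeogenesis genes and fasting regulators 35 of 355 were lost (9.86%) and 10 gained (2.82%), with a median of -0.03. Of 71 cholesterol intervals called in all 4 livers, 1 was higher by at least 0.5 in both pairs and 5 lower. For lipogenesis the numbers were 1 and 1 of 82, and for gluconeogenesis 0 and 6 of 113. Over all intervals near a gene 2.26% were higher and 2.41% lower. Without Cpt2 KO replicate 1 the lost shares were 13.7%, 14.0% and 12.5%, against 7.28% over all intervals near a gene, and the hepatocyte marker list had the larger share of 15.6% (17 of 109). These lists were chosen with earlier results of these data known, and no list was tested.

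Srebf2, the master regulator of cholesterol synthesis, had an interval 2481 bases from its body, chr15:82143688-82145888, with folds of 6.41 and 7.80 in WT and 4.09 and 4.50 in Cpt2 KO. Its H3K27ac was 4.72 and 25.7 in WT, far apart between the 2 WT livers, and not called in Cpt2 KO. Insig1, which holds SREBP in the endoplasmic reticulum, had chr5:28055804-28056908 at 10.6 and 8.82 in WT and 6.66 and 5.0 in Cpt2 KO. Neither interval overlapped between the groups. Fdft1, the squalene synthase gene, had a lost interval at 10.3 and 6.44 in WT. Abca1, the cholesterol exporter, had a gained interval inside its body, chr4:53158483-53159863, at 7.99 and 7.74, where H3K27ac went the other way, with 26 and 41.4 in WT against 16.4 and 13.9 in Cpt2 KO.

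Scd1, the delta-9 desaturase of lipogenesis, had chr19:44415395-44419070 at 11.7 and 12.2 in WT and 5.70 and 7.63 in Cpt2 KO. Me1, the malic enzyme that supplies NADPH, had a lost interval, chr9:86694567-86694899, at 8.19 and 6.55 in WT, and H3K27ac there was 20.2 and 42.8 in WT and 5.20 and 8.29 in Cpt2 KO. Dgat2, which makes triglyceride, had a lost interval at 6.08 and 7.70. Fads2, a desaturase of polyunsaturated fatty acids, had 3 lost intervals in its body but 1 outside it that was higher: chr19:10114677-10117429 was 5.42 and 4.84 in WT and 9.70 and 8.28 in Cpt2 KO, and H3K27ac was called only in the Cpt2 KO livers of the 4, at 9.92 and 10.9.

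Mlxipl encodes ChREBP, the carbohydrate-responsive factor of lipogenesis and glycolysis. Inside it, the interval chr5:135102141-135104283 had folds of 8.67 and 9.78 in WT and 3.60 and 4.86 in Cpt2 KO, which differed by -1.14 on the log2 scale (SE 0.30, limma adjusted p = 0.788), with no call in DKO. Irs2, an adaptor of the insulin receptor, had chr8:11009941-11011788 at 10.7 and 7.71 in WT and 5.27 and 4.20 in Cpt2 KO, 1935 bases from its body. The groups did not overlap at Mlxipl or Irs2. Another Irs2 interval, 10665 bases away on the other side of the gene, was gained, at 7.62 and 6.41 in Cpt2 KO. Ppargc1a, the coactivator of fasting metabolism, had a lost interval at 6.45 and 7.28 in WT and a gained one at 10.3 and 4.67 in Cpt2 KO, both inside its body.

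Transcription factors of hepatocytes had 30 of 394 intervals lost (7.61%) and 8 gained (2.03%), with a median log2 difference of -0.06, and without Cpt2 KO replicate 1 the lost share was 9.26% against 7.28% over all genes. Foxa3, a forkhead factor of liver, had chr7:19018052-19019104 inside its body at 12.3 and 10.98 in WT and 4.48 and 5.40 in Cpt2 KO, which is -1.24 on the log2 scale (SE 0.29, limma adjusted p = 0.788). Rxra, the partner of PPARA, had the opposite at chr2:27685193-27691493, with 5.65 and 5.95 in WT and 11.4 and 10.8 in Cpt2 KO. Both separated the groups. Nr0b2, the bile acid-induced repressor SHP, had a lost interval at 7.57 and 7.57 in WT and a gained one at 4.58 and 3.50 in Cpt2 KO. Foxa1, another forkhead factor, had a lost interval at 7.75 and 7.37 in WT and a gained one at 5.89 and 5.62 in Cpt2 KO.

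The stress and repair lists had few intervals. Over all intervals near a gene, 3.26% were gained and 4.43% lost. Of those called in all 4 livers, 2.26% were higher and 2.41% lower by at least 0.5 in both pairs. The integrated stress response and serine synthesis list had 3 gained (5.56%) and 1 lost (1.85%) of 54. Its median log2 difference was 0.13. Of its 25 intervals called in all 4 livers, 2 were higher by at least 0.5 in both pairs and 0 lower. One of the 2 was that over Fgf21, which is in this list too. The other lay in Atf3, chr1:191178334-191181675, at 5.34 and 5.16 in WT and 7.76 and 7.502 in Cpt2 KO. Phgdh, the first enzyme of serine synthesis, had a gained interval at 5.49 and 6.35. Nfe2l2 antioxidant targets had 7 gained (4.79%) and 5 lost (3.42%) of 146. A gained interval lay inside Txnrd1, thioredoxin reductase, at 8.60 and 7.0. Intervals near Gsta2 and Ugdh were lower, that of Ugdh with 9.04 and 8.18 in WT and 4.96 and 5.25 in Cpt2 KO.

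Cell cycle genes had 7 gained (7.95%) and 6 lost (6.82%) of 88, against 3.26% and 4.43% over all genes. Without Cpt2 KO replicate 1 the shares were 22.7% gained and 10.7% lost, against 15.0% and 7.28% over all genes. Gains included intervals inside Cdk1, at 7.52 and 5.93, and Ccna2, at 5.6 and 6.41. Extracellular matrix genes had 9 gained (5.29%) and 6 lost of 170 (26.7% and 4.67% without that library), with gains inside Col4a1, a basement membrane collagen, the strongest at 6.37 and 6.50, and losses inside Fn1, fibronectin, the strongest at 8.98 and 7.402 in WT. In Smad3, which carries transforming growth factor beta signals, a wide interval was 13.4 and 10.4 in WT and 19.6 and 16.4 in Cpt2 KO. Circadian clock genes had 5 gained (2.24%) and 11 lost (4.93%) of 223. An interval inside the output factor Hlf had 14.0 and 15.7 in WT and 7.0 and 10.4 in Cpt2 KO. Acute phase and complement genes had 9 gained (4.43%) and 14 lost (6.9%) of 203, with losses near Itih4 and Saa4.

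Markers of the cells a liver sample holds were read in the same way. Intervals near 11 of 12 hepatocyte markers were called, 57 to 97 per library, the lowest number in Cpt2 KO replicate 2 and the highest in WT replicate 1. Their summed fold was 602 and 424 in WT and 623 and 340 in Cpt2 KO, with 2 gained and 9 lost of 140. Kupffer cell markers had intervals near 4 of 12 genes, with none near Clec4f, Vsig4, Timd4 or Cd5l, and a summed fold of 55.8 and 47.7 in WT and 48.0 and 39.1 in Cpt2 KO. Stellate cell markers had 5 of 12 genes, with none near Lrat, Des or Hand2, and 88.6 and 119 against 74.4 and 162. Endothelial markers had 11 of 12 genes and 218 and 307 against 287 and 305. Cholangiocyte markers had 7 of 12, with none near Krt19 or Krt7, and 258 and 322 against 236 and 241. Lymphocyte markers had 3 of 12, with none near Cd3e, and 38.6 and 50.4 against 19.6 and 37.6. The groups overlapped in hepatocyte, Kupffer cell, stellate and endothelial markers and did not in cholangiocyte and lymphocyte markers, where Cpt2 KO was lower. These sums are not centred and depend on the number of calls. The lymphocyte sums rest on 5 and 8 called intervals in WT and 3 and 6 in Cpt2 KO. The 1 lymphocyte interval called in all 4 livers had a log2 difference of 0.165. The 19 such cholangiocyte intervals had a median of -0.0009. In whole liver a change in the number of cells of a type cannot be told apart from a change within them, and the part of these markers in the results was not tested.

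H3K27ac, a mark that did not choose the intervals, was read at the same places. The numbers in the peak names are the same for the 2 marks, so the WT and Cpt2 KO libraries were taken to come from the same livers, and the shares are given as a description. An H3K27ac peak overlapped 29.9% and 28.2% of gained intervals in WT and 52.4% and 53.0% in Cpt2 KO. At lost intervals it overlapped 23.6% and 19.8% in WT and 6.51% and 7.36% in Cpt2 KO. Over all intervals called in at least 1 of the 4 livers the same shares were 37.2% and 36.8% in WT and 36.3% and 36.8% in Cpt2 KO. At gained and lost intervals the groups did not overlap, and the livers of a group were closer together than the groups. H3K27ac itself was gained at 551 of the gained intervals (18.6%) and at 9 of the lost ones, against 4.32% of all, and it was lost at 331 of the lost intervals (8.83%) and at 20 of the gained ones, against 4.12% of all.

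Where H3K4me1 was called in all 4 livers and both pairs agreed, H3K27ac differed in the same direction at most of the intervals that had it in all 4 livers. At the 327 higher intervals with H3K27ac in all 4 livers its median log2 difference was 0.42, and it was higher in Cpt2 KO at 75.8%. At the 248 lower intervals the median was -0.50, with 22.2% higher. Over all 13191 such intervals the median was -0.125 and 41.4% were higher. H3K9ac, with 1 library per group and so no replicate, was called at 18.5% of gained intervals in WT and 21.8% in Cpt2 KO, and at 17.3% and 13.1% of lost intervals, against 28.9% and 29.3% of all intervals called in at least 1 of the 4 livers.

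The Ppara-null livers, which also did not choose the intervals, give a second pair of groups that differ in Cpt2. Gained intervals were called for H3K4me1 at 43.0% and 56.0% in Ppara KO and at 59.1% and 67.8% in DKO. Lost intervals were called at 41.9% and 16.5% in Ppara KO and at 10.7% and 12.2% in DKO. Over all intervals called in at least 1 of the 4 WT and Cpt2 KO livers, the Ppara KO livers had 52.6% and 47.9% and the DKO livers 46.5% and 50.5%, so that Ppara KO at gained intervals lay around that level. In both sets the 2 groups did not overlap, and the means differed by 13.9 and -17.7 percentage points. An exact permutation test of 2 livers against 2, two-sided, gave p = 0.333 for each, the smallest it can give. At lost intervals the 2 Ppara KO livers were farther apart than the group means. H3K4me1 peaks of Ppara KO replicate 1 covered 53.3 Mb, against 42.7 Mb for Ppara KO replicate 2 and 38.8 and 46.0 Mb for the DKO replicates. Among the 4 Ppara-null livers, Ppara KO replicate 1 had the lowest share at gained intervals and the highest at lost intervals. The smallest peaks were 200 and 216 bases wide for the Ppara KO livers, against 210 and 221 for DKO. Neither the part of the covered length nor that of the smallest width in these shares was tested. Of the gained intervals, 145 were called in both DKO livers and in neither Ppara KO liver (4.90%), against 2.01% of all. Of the lost intervals, 147 were called in both Ppara KO livers and in neither DKO liver (3.92%), against 1.74% of all. With the intervals chosen without Cpt2 KO replicate 1, the difference at gained intervals was -0.18 percentage points and that at lost intervals -11.3. That choice asks for a call in 1 Cpt2 KO liver in place of 2, and the cause of the shift was not tested.

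**Figure D4:**
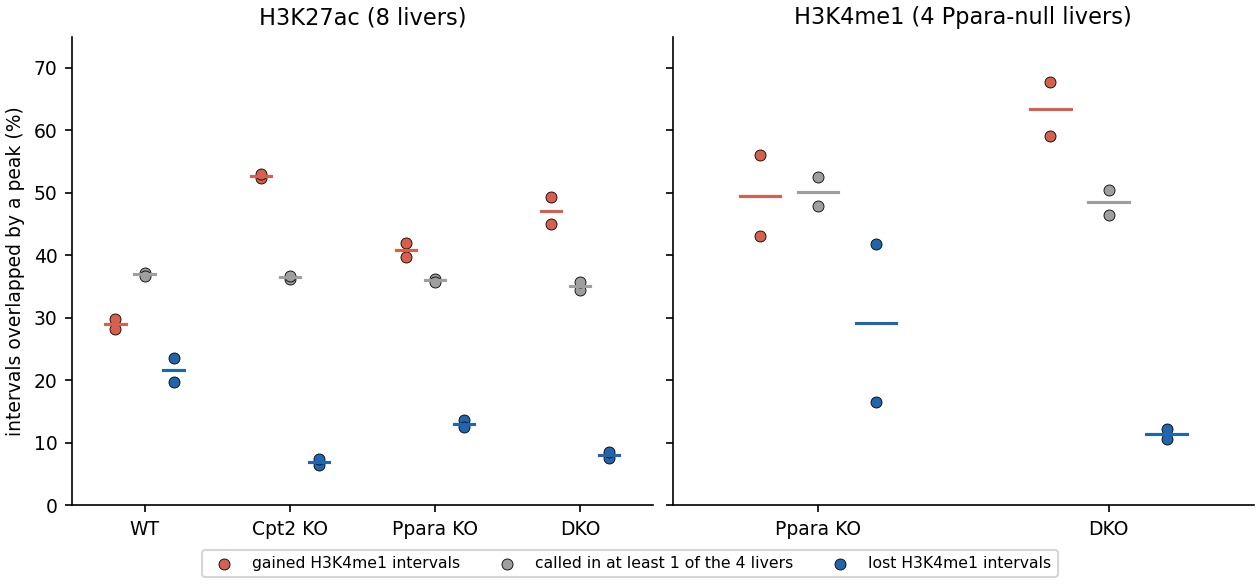
Share of intervals (y axis, percent) overlapped by an H3K27ac peak in each of 8 livers (left) and by an H3K4me1 peak in each of the 4 Ppara-null livers (right). Points are livers and short bars group means. At gained intervals (red) the H3K27ac share is 52.4% and 53.0% in Cpt2 KO against 29.9% and 28.2% in WT, at lost intervals (blue) it is 6.51% and 7.36% against 23.6% and 19.8%, and over all intervals (grey) the genotypes lie between 34.5% and 37.2%.

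With the intervals chosen without Cpt2 KO replicate 1, H3K27ac overlapped 17.95% and 17.84% of gained intervals in WT and 23.9% and 25.3% in Cpt2 KO, and 31.1% and 27.4% of lost intervals in WT against 18.15% and 17.46% in Cpt2 KO. Both orders were as before, with smaller gaps at gained and at lost intervals.

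The deleted gene was read as a check on the labels. Cpt2 had 5 intervals near it, on chr4. Inside the gene body, chr4:107920066-107922888 had H3K4me1 folds of 5.78 and 4.36 in WT and 5.71 and 5.64 in Cpt2 KO, and H3K27ac folds of 11.5 and 16.9 in WT and 18.7 and 23.3 in Cpt2 KO. Just outside it, chr4:107901656-107903136 had H3K4me1 folds of 8.19 and 10.3 in WT and 5.74 and 9.58 in Cpt2 KO. The groups overlapped in H3K4me1 at both. H3K27ac at the second was 7.77 and 9.88 in WT and was called in neither Cpt2 KO liver. A histone mark does not show the deleted exon, so these values check the labels only weakly. Ppara, intact in these 4 livers, had 1 gained interval 18989 bases away, at 4.61 and 4.73, and 0 lost.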

How the data were processed

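Chromatin immunoprecipitation followed by sequencing was deposited by the authors as 1 MACS2 peak list per library. BWA, MACS2 2.1.0 and build mm10 are named in the submitters' processing notes. The deposited lists give for each peak a fold enrichment (a ratio to background), a −log10 p and a −log10 q, and no read totals, so the depth is unknown and no interval that needs it is given. For each library and consensus interval the highest fold among the peaks sharing at least 1 base with it was taken, put on the log2 scale and centred on the library median over the 23978 intervals called in all 4 livers. Groups were compared with limma 3.58.1 in R 4.3.3 (moderated test with a trend, Benjamini-Hochberg adjustment, threshold 0.05), which was tested on simulated data. Whether the H3K4me1 replicates are separate mice is read from the different numbers in the peak names.

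Intervals were assigned to the nearest of 21896 protein-coding gene bodies of RefSeq GRCm38.p6, measured from the middle of the interval. Gene lists used a limit of 25000 bases. The text names the 12 intervals with the largest agreeing difference in each direction (by the smaller pair difference), the 12 strongest gained and lost intervals (by the lower fold), the 8 genes with most of each, and up to 4 members a list by size, with Cpt2 and Ppara. List members beyond these, such as the opposite intervals of a named gene and the neighbouring intervals of Fgf21, Anxa2, Fabp3 and Slc13a2, were chosen after their values were seen. Members, rules and lists were all chosen with earlier results of these data known. A planned permutation test of H3K27ac shares over 8 livers is not reported, because the same WT and Cpt2 KO livers chose the intervals. The deposited consensus table of H3K27ac was not used. Alternatives covered a replicate block, all 8 H3K4me1 libraries, centring, peak strength, overlap, uncalled libraries, peak width, gene distance and leaving out each library.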

Additional observations from a re-analysis of the deposited data

Results flagged for a closer look

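At 3 of 37 named intervals compared the difference made by Cpt2 loss had opposite signs with and without Ppara, every liver of each pair moving the same way. No share over all intervals is given beside this count, so it is a description only. Signs also differed near Tnfrsf11a (1.54 and -0.0073), Ddhd1 (-1.25 and 0.0364) and Irs2 (-0.95 and 0.0806), where that condition was not met. Of the 3 that met it, Adgrl2 had a log2 difference of 1.34 for Cpt2 KO minus WT and -0.63 for DKO minus Ppara KO. In Cpt1a the 2 differences were 0.82 and -0.27, and in Hadha 0.83 and -0.63. These intervals were chosen for a large Cpt2 KO minus WT difference, and the interaction uses those same values, so its size and unadjusted p are inflated by the choice. The test of the difference itself, an interaction in limma, gave -1.97 (SE 0.47) near Adgrl2, -1.08 (SE 0.39, with an unadjusted p of 0.0119) in Cpt1a and -1.45 (SE 0.40) in Hadha. The limma adjusted p was 1.0 at all 3, and 0 of 19526 intervals passed, with 566 at an unadjusted p under 0.05.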

How the results depend on the processing

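The count of intervals passing limma was 25 with a replicate block (13 higher, 12 lower) and 0 to 52 leaving out 1 library, 52 being without Cpt2 KO replicate 1. It was 0 under the other alternatives. Same-numbered livers share only a number: their deviations correlated at r = 0.10 over 2 pairs. With a −log10 q of at least 10 in the calling group, gained intervals numbered 1598 and lost intervals 1773. Leaving out 1 library gave 4606 to 16893 gained, the highest without Cpt2 KO replicate 2, and 5400 to 12729 lost. The mean H3K27ac share of Cpt2 KO and DKO minus that of WT and Ppara KO was 15.0 percentage points at gained intervals (12.7 to 17.3 leaving out 1 library) and 4.53 with intervals chosen without Cpt2 KO replicate 1. At lost intervals this pooled difference was -9.87 (-11.5 to -7.80), -7.38 with a −log10 q of at least 10 and -7.99 with intervals chosen without that library. It includes the WT and Cpt2 KO livers, which chose the intervals. At gained intervals the mean shares were 29.0% in WT and 52.7% in Cpt2 KO, but 40.9% in Ppara KO and 47.2% in DKO. At lost intervals they were 21.7% and 6.94%, but 13.1% and 8.07%. The H3K4me1 share of DKO minus Ppara KO at gained intervals was 13.9 (7.44 to 20.4) and reversed to -0.18 with intervals chosen without Cpt2 KO replicate 1, and at lost intervals it was -17.7 (-30.4 to -5.02). Gained and lost intervals summed over the gene lists were 307, and 575 without Cpt2 KO replicate 1. Choosing intervals without that library was added after seeing the data, and the cause of these shifts was not tested. Of 549 comparisons of 45 named intervals over 13 alternatives, 526 kept direction and side of the threshold, 23 newly passed it and 0 reversed. The named intervals were chosen for differences without overlap between these same livers, so a kept direction was largely set by the choice. Missing read totals limit every comparison of fold between libraries.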
